A study of Rattus norvegicus with 12 samples.

Results

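Denervated calf muscle of vehicle-treated rats was compared between 7 and 35 days after the nerve was cut, over every gene on the array. The 6 arrays used here are the vehicle arrays among the 12 of the series, chosen by their sample labels, with 3 rats at day 7 and 3 at day 35. All were male Wistar-Hannover rats in which the left sciatic nerve was cut, and total RNA came from the gastrocnemius of the operated limb. The day 7 rats received vehicle for 7 days from the day of surgery, and the day 35 rats received it for 7 days from day 29. The other 6 arrays come from rats given nandrolone, an anabolic androgen, on the same 2 schedules, with 3 rats in each group. No innervated muscle was among the arrays and the later rats were also older, so time since nerve section, age and growth cannot be told apart. The age of the rats is not given in the sources used here.

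The sciatic nerve carries the motor axons of the calf, and a muscle that loses them stops contracting, wastes and becomes sensitive to acetylcholine outside the synapse. In the first weeks denervated muscle is known to turn on acetylcholine receptor subunits, myogenic factors, embryonic myosins and ubiquitin ligases that tag contractile proteins for breakdown. Later the wasting slows, while fibres stay thin and connective tissue changes. Muscle also holds its own circadian clock, a loop in which Bmal1 with Clock or Npas2 switches on the Per, Cry and Rev-erb genes that feed back on it, and contraction and glucocorticoids are known inputs to that clock.

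Muscle genes defined the samples: the summed signal of 17 muscle fibre markers was 198590 to 203130 at day 7 and 196834 to 207658 at day 35. Median deposited signals of the 6 arrays ran from 44.8 to 60, and signals below are given after quantile normalisation, which puts the 12 arrays on one scale. The actin control's ratio of 3' to 5' signal, which rises as RNA degrades, was 2.81, 2.11 and 2.25 at day 7 and 3.13, 2.68 and 3.71 at day 35, and the 2 ranges overlapped. The first principal component of the 6 arrays separated the days and held 52.8% of the variance, and the second, with 19.8%, spread the day 35 arrays apart, from -40.36 for replicate 2 to 33.87 for replicate 3. Nandrolone day 35 replicate 3 stood apart from its group, correlating with the other arrays of that group at a mean r of 0.8999, and it enters the vehicle comparison through the shared estimate of spread, the shared scale and the choice of tested probe sets.

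Between day 7 and day 35 a moderate share of the measured transcripts changed, with more rises than falls. A probe set is the array's unit of measurement, and a change is the difference of mean log2(signal + 16), day 35 minus day 7, given ± the standard error of the fit with 3 arrays in each group. Limma called 1045 of 18625 tested probe sets at a Benjamini-Hochberg adjusted p under 0.05, which is 5.61%, with 641 higher at day 35 (3.44%) and 404 lower (2.17%). At an unadjusted p under 0.05 there were 4346 of the 18625. Counts of list members at that threshold, given below, are to be read beside this share. Rises of at least 2-fold numbered 374 and falls of at least 2-fold 209, and 34 rises and 32 falls reached 4-fold. The arrays of the 2 days did not overlap for 18.5% of all probe sets in the higher direction and 16.7% in the lower direction, and for all 1045 called ones. With each of 10421 genes represented by its brightest probe set, 266 rose (2.55%) and 226 fell (2.17%), and the median change over all probe sets was -0.0044. Of the called genes 153 had further probe sets; these were all called the same way for 31 genes and any was called the opposite way for 0.

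The number of calls depended on single arrays. It was 178 without vehicle day 7 replicate 2, 206 without replicate 3, 330 without replicate 1, 273 without vehicle day 35 replicate 1, 373 without replicate 3 and 976 without replicate 2. It was 2030 without nandrolone day 35 replicate 3 and 2570 when only the 6 vehicle arrays were fitted, with 1033 of the 1045 among them. Of 18625 probe sets the fit of the 6 vehicle arrays called 1407 higher and 1163 lower. List counts from that fit, given below, are to be read beside these. On the deposited scale, without normalisation, 192 passed and 77.1% of them were higher, against 61.3% in the normalised values. Of the 99 called genes that are named by rule below, 26 kept their call in all alternatives run for them and 0 turned in direction; leaving out vehicle day 7 replicate 2 ended 67 of the 99 calls, replicate 3 ended 63 and replicate 1 ended 47, and leaving out vehicle day 35 replicate 1, 2 or 3 ended 56, 27 and 38.

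**Figure D1:**
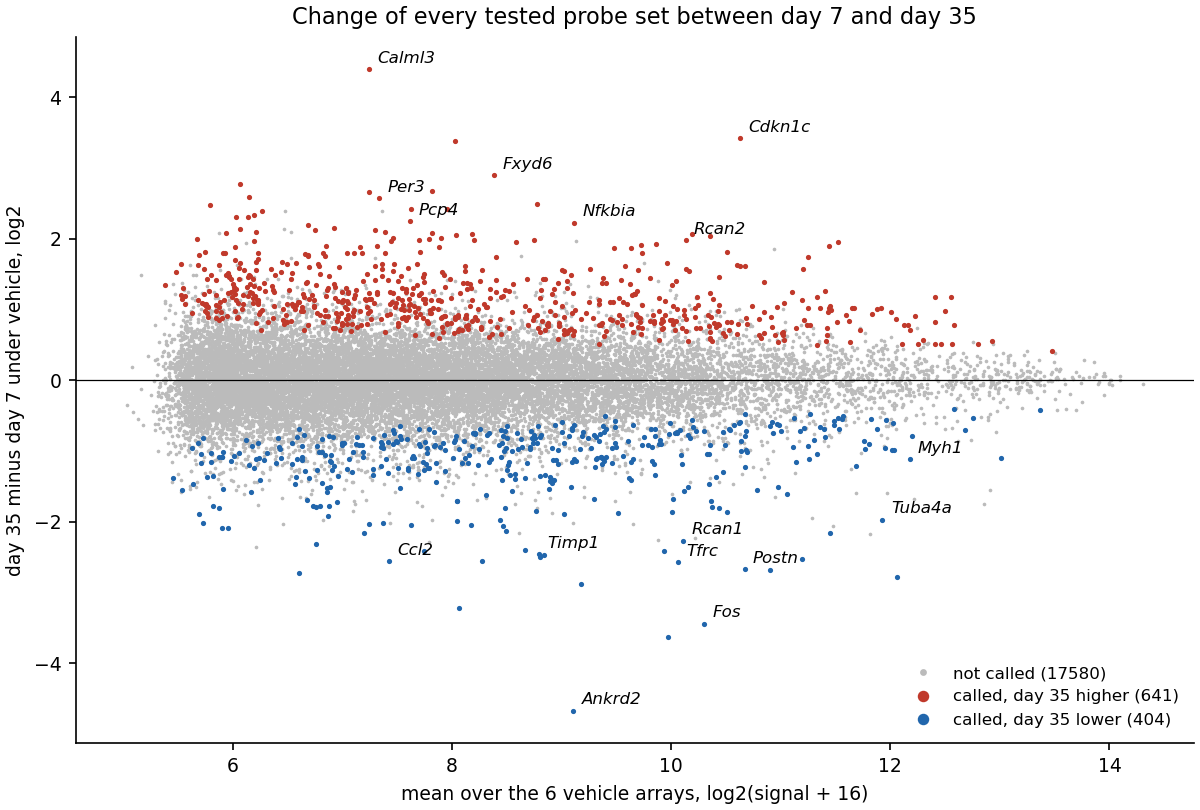
Change between the days against mean level for the 18625 tested probe sets; each point is a probe set, the x axis is the mean of log2(signal + 16) over the 6 vehicle arrays and the y axis the log2 difference of day 35 from day 7. Red and blue points are the 641 called higher and the 404 called lower, and Calml3 at 4.41 and Ankrd2 at -4.67 are the outermost named points.

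The largest rise was that of Calml3, which encodes a calmodulin-like calcium sensor best known from epithelia. Its signals were 14.8, 20.9 and 15.1 at day 7 and 677, 1066 and 433 at day 35. At day 7 all 3 arrays lay near the floor of the assay and at day 35 all 3 stood far above it, a change of 4.41 ± 0.46 (adjusted p = 0.00133) that depends on the pseudocount and ranged from 3.21 to 5.27 over the alternatives. Cdkn1c encodes p57, a cyclin-dependent kinase inhibitor that holds differentiating cells out of the cycle. Its signals were 596, 409 and 419.9 at day 7 and 4820.4, 9105 and 3145 at day 35, so the lowest day 35 array was above every day 7 array, and it rose by 3.42 ± 0.46 (adjusted p = 0.00286). Fxyd6, a small regulator of the sodium pump known from nervous tissue, had 87.5, 139 and 98.3 at day 7 and 559, 1205 and 1069.9 at day 35 and rose by 2.90 ± 0.36 (adjusted p = 0.00197). All 3 genes kept their call in the 17 alternatives run for each.

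Other large rises fell on genes of several kinds. Ppl, the cell junction protein periplakin, rose by 2.77 ± 0.26 and Stap2, a signalling adaptor, by 2.60 ± 0.36, from day 7 mean signals of 9.60 and 12.8 to 159 and 158. As with Calml3 their day 7 arrays lay near the floor, so the size of the change depends on the pseudocount: it ranged from 1.60 to 4.02 for Ppl and from 1.53 to 3.65 for Stap2 over the alternatives, and both kept their call in all of those run. Nfkbia encodes I-kappaB alpha, which keeps NF-kappaB out of the nucleus. Its signals were 267, 232 and 222 at day 7 and 1171, 1176 and 1206 at day 35, with hardly any spread within a day, and it rose by 2.23 ± 0.26 (adjusted p = 0.00162). Itga9, an integrin subunit that binds tenascin and osteopontin, rose by 2.12 ± 0.25, and Ky, a muscle protein named after the kyphoscoliosis mouse, by 2.05 ± 0.38 on the brighter of its 2 called probe sets. Neu2, a cytosolic sialidase of muscle, rose by 1.98 ± 0.42, Arrdc2 by 1.95 ± 0.36 and Tsc22d4, a leucine zipper protein, by 1.93 ± 0.33 on 1 of 2 probe sets. Hebp2, a haem-binding protein, rose by 2.01 ± 0.41, Adh1c, an alcohol dehydrogenase, by 2.00 ± 0.38 and Mtarc1, a molybdenum enzyme of the outer mitochondrial membrane, by 1.99 ± 0.24. C5h8orf88 and the immunoglobulin variable gene Ighvl1 completed the 20 largest rises, the latter with 2.10 and signals of 23.5, 8.99 and 30.2 at day 7 and 111, 49.6 and 417 at day 35. Adh1c and Ighvl1 were also near the floor at day 7, with changes that ranged from 1.04 to 3.10 and from 1.33 to 2.77, so their place among the largest rises depends on the pseudocount.

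The largest fall was that of Ankrd2, an ankyrin repeat protein of the sarcomere's I-band that responds to stretch and marks slow fibres. Its signals were 3069, 2292 and 2996 at day 7 and 114, 73.9 and 95.5 at day 35. The 3 day 35 arrays were close together and more than an order of magnitude below those of day 7, and Ankrd2 fell by 4.67 ± 1.18 (adjusted p = 0.0396). Leaving out any of the 6 vehicle arrays ended this call while the change stayed between -4.88 and -4.16 over all alternatives. Tfrc encodes the transferrin receptor, the cell's main route of iron uptake. It had 3025, 1926 and 2959.7 at day 7 and 429, 328 and 536 at day 35 and fell by 2.57 ± 0.55 (adjusted p = 0.0212), and its second probe set was called lower as well. Timp1, an inhibitor of matrix metalloproteinases, had 1328, 695 and 1144 at day 7 and 126, 165 and 249 at day 35 and fell by 2.45 ± 0.61. Ccl2, the chemokine that draws monocytes into tissue, had 383, 248 and 676 at day 7 and 58.8, 57.2 and 49.0 at day 35 and fell by 2.56 ± 0.45 (adjusted p = 0.00987). For these 4 genes no day 35 array reached any day 7 array. In bulk muscle fewer cells of a type and less of their RNA per cell cannot be told apart, which touches Ccl2, Timp1 and every gene below that cells other than fibres make.

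Pvr, the poliovirus receptor that takes part in cell adhesion, fell by 2.47 ± 0.36, and Rrad, a muscle GTPase that restrains calcium channels, fell by 2.12 ± 0.51. Hbegf, a growth factor of the EGF family, fell by 1.98 ± 0.47, Kcnab1, a potassium channel subunit, fell by 2.02 ± 0.48 and Tm6sf1, a lysosomal membrane protein, fell by 1.89 ± 0.43. Magea9, a gene of the melanoma antigen family, stood at -2.72 ± 0.48, the open reading frame C8h3orf62 at -2.31 ± 0.50 and the uncharacterised loci LOC100912188 and LOC102553868 at -2.15 ± 0.28 and -2.02 ± 0.42, all 4 called. Of these Magea9, C8h3orf62 and LOC102553868 were near the floor at day 35, with mean signals of 21.8, 32.5 and 10.4, and their changes ranged from -3.43 to -1.79, from -3.05 to -1.52 and from -3.14 to -1.07 over the alternatives. Magea9 and other members of large families (myosin heavy chains, tubulins, glutathione transferases) have near-identical copies, and binding of a copy's RNA to their probes was not tested.

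**Figure D2:**
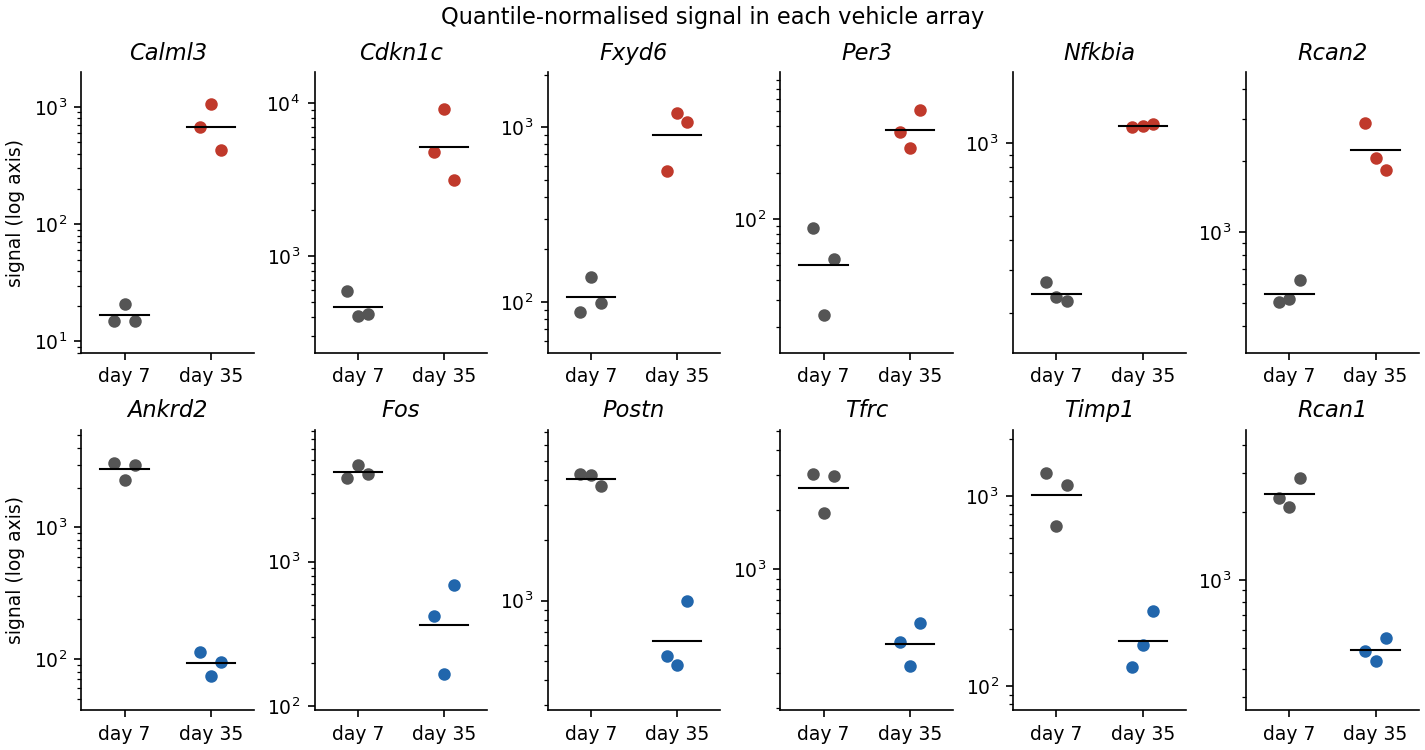
Signal of 12 genes in each of the 6 vehicle arrays, one panel per gene on a log axis; points are arrays, horizontal bars the mean of each day taken on the log2(signal + 16) scale. In every panel the 3 day 35 arrays lie wholly above (top row) or wholly below (bottom row) the 3 of day 7. This holds for all 1045 called probe sets and was a condition for the largest rises and falls. The panels run from Calml3 with 16.8 against 679 to Rcan1 with 2405 against 487.

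Circadian clock genes were called in both arms of the loop in the normalised values. Of the 20 listed, 17 were tested. Of these 7 rose and 3 fell, against 2.55% and 2.17% of all genes, and the median change of the list was 0.72. The clock list and the lists below were chosen with earlier results of these data known. A share above that of all genes is therefore no independent result. The genes that rose belong to the repressing and output arm. Per3, a period protein, had 87.1, 23.6 and 54.7 at day 7 and 369, 287 and 512 at day 35 and rose by 2.58 ± 0.32 (adjusted p = 0.00192). Per2, a repressor that pairs with the cryptochromes, had 168, 99.7 and 118 at day 7 and 645, 489 and 617 at day 35 and rose by 2.07 ± 0.29 (adjusted p = 0.00382). The repressor Bhlhe41, also known as Dec2, had 553, 359.8 and 431 at day 7 and 1343, 1709 and 1709.8 at day 35 and rose by 1.80 ± 0.19. In each of these 3 genes the days did not overlap. The PAR-domain factors Dbp and Tef, which drive clock output through D-boxes, rose by 1.57 ± 0.25 and 1.07 ± 0.24, the repressor Cry2 by 1.23 ± 0.22 and the Rev-erb receptor gene Nr1d2 by 0.90 ± 0.13. Tef and Nr1d2 were called on 1 of 3 probe sets and Cry2 on 1 of 2.

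Of the genes that fell, Bmal1 and Npas2 belong to the activating arm, and Nfil3 is a repressor that acts on clock output. Bmal1, the activator at the core of the loop, had 118, 162 and 149 at day 7 and 21.0, 63.5 and 46.7 at day 35 and fell by 1.47 ± 0.29 (adjusted p = 0.0171), in a range of -1.84 to -0.96 over the alternatives. Npas2, a partner of Bmal1, fell by 1.02 ± 0.21, and Nfil3, which represses the D-boxes that Dbp activates, had 214, 145 and 188 at day 7 and 13.4, 41.9 and 93.6 at day 35 and fell by 1.78 ± 0.37 (adjusted p = 0.0196). For these 3 genes too every day 35 array was below every day 7 array. Per1 stood at 1.11 ± 0.55 with overlapping days, 173, 26.5 and 95.8 at day 7 and 207, 157 and 216 at day 35, and did not pass (adjusted p = 0.244), and Nr1d1 stood at 0.39 ± 0.28 (adjusted p = 0.433). Clock and Cry1 were at -0.12 ± 0.16 and -0.00 ± 0.22. When each vehicle array was left out in turn the list kept 5 to 6 rises and 0 to 3 falls, and its median stayed between 0.61 and 0.86. On the deposited scale the list had 5 rises and 0 falls, so the calls of its falls depended on the normalisation. The labels give no hour of tissue collection, so the clock phase at which each group was killed cannot be told apart from the days.

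**Figure D3:**
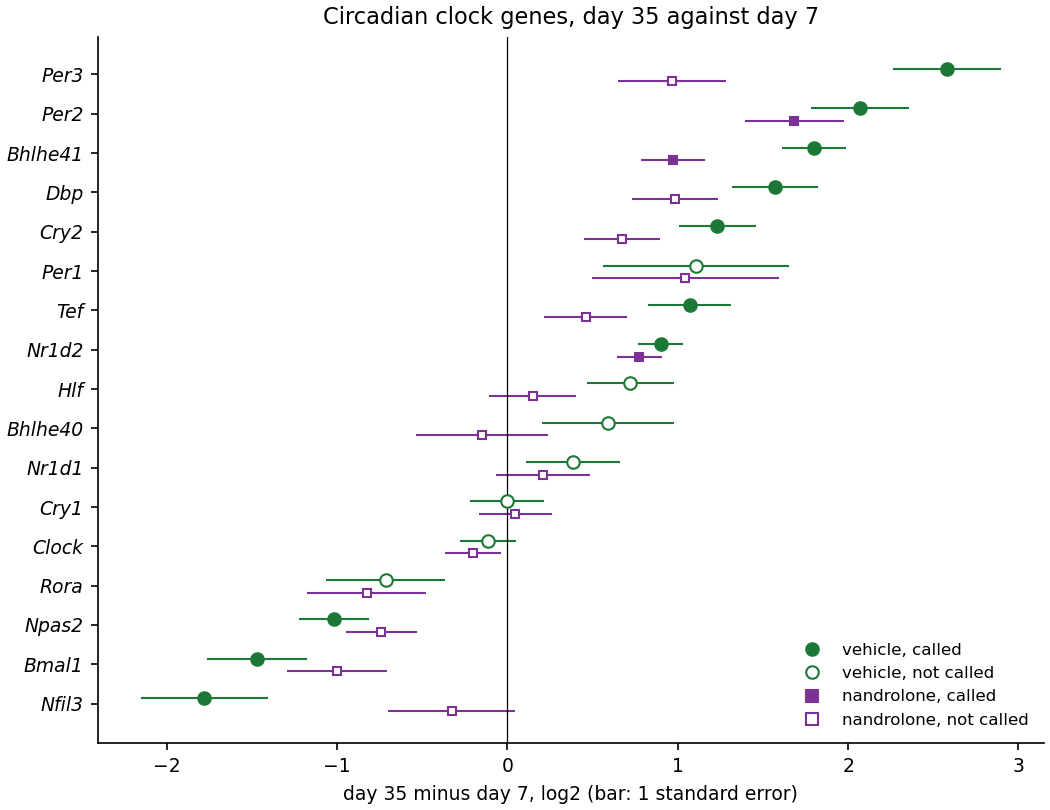
Change of the 17 tested clock genes from day 7 to day 35 in vehicle rats (green circles) and nandrolone rats (purple squares), on the log2 scale with bars of 1 standard error; filled symbols were called by limma. Per3 at 2.58 and Nfil3 at -1.78 bound the vehicle changes, and 10 circles and 3 squares are filled.

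Promoters of 3 clock genes that rose are shown because they hold the 2 kinds of element through which the loop is known to act. The windows run from 250 bases before to 50 after the start of each gene, as given by RefSeq on the GRCr8 assembly, and capitals mark the element: an E-box (CACGTG), the site of Bmal1 and its partners, in Bhlhe41 (chr4:180569306-180569605, minus strand, first base of the element at -48 from the start site) and Tef (chr7:115206577-115206876, plus strand, -198), and a D-box (TTATGTAA, with TTATGCAA also searched) in Per2 (chr9:99496944-99497243, minus strand, -192).
Bhlhe41: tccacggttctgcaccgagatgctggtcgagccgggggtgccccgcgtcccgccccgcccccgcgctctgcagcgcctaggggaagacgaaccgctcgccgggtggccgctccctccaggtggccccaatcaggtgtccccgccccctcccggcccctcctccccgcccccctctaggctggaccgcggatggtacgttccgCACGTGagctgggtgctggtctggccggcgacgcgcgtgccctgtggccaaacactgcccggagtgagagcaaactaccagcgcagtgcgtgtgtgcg
Tef: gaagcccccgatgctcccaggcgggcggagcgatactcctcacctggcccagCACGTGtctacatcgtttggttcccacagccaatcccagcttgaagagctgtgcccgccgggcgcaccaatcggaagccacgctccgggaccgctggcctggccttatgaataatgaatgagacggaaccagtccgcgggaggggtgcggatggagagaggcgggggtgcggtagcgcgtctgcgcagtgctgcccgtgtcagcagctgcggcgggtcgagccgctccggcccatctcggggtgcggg
Per2: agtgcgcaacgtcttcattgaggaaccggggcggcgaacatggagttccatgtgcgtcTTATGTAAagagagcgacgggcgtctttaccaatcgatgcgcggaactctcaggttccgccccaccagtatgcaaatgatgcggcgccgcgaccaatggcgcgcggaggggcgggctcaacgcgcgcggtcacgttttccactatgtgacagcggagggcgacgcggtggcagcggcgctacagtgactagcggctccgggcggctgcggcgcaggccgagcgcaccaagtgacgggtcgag

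Of the 17 clock genes 15 had such a window in the table; 4 of these held an E-box on either strand, which is 26.7%, as did 6.42% of 33469 windows of all genes. Besides Bhlhe41 and Tef these were Bhlhe40 and Nr1d1, which did not pass. Per2 was the 1 gene with a D-box (6.67%, against 1.73% of all windows). A match only says that these letters stand in the window. A gene was counted when any of its windows held the element, and Clock and Nr1d1 had more than 1 window. Nr1d1 did not hold the E-box in all of its windows. The share over all genes is per window, so it differs in unit from the share of the list.

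Glucocorticoid responsive genes, transcripts that the adrenal hormones are known to induce in muscle, were mostly higher at day 35 among those called. Of 22 tested, 6 rose and 1 fell, which is 31.8% where 4.72% of all genes were called, with a median of 0.46. Besides Nfkbia, Klf9, a zinc finger factor induced directly by the glucocorticoid receptor, had 2231, 2159 and 2349.7 at day 7 and 4785, 4355 and 4589 at day 35 and rose by 1.02 ± 0.17. Klf15, which drives amino acid breakdown in muscle, had 922, 817 and 730.4 at day 7 and 1795, 1707 and 1555 at day 35 and rose by 1.02 ± 0.19, and the kinase gene Sgk1 rose by 0.97 ± 0.16. These 3 genes changed by about the same amount and their days did not overlap, though a second probe set of Klf9 and of Klf15 was not called. Tsc22d3, known as GILZ, rose by 1.02 ± 0.24 and the sulfotransferase Sult1a1 by 1.43 ± 0.36. The metallothionein gene Mt2A, which binds zinc and is induced by the same hormones and by metals, fell by 1.81 ± 0.39, and the ligase genes Fbxo32 and Trim63, also targets of the receptor, stood at -1.06 ± 0.38 and -0.39 ± 0.19 without passing. In the fit of the 6 vehicle arrays, which called 2570 of 18625 probe sets, 10 of the list rose and 4 fell. Leaving out single vehicle arrays gave 3 to 4 rises and 0 to 1 falls.

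Among steroid receptors and steroid enzymes, 2 of 10 rose and 1 fell (30%, against 4.72% of all genes). Nr3c2, the mineralocorticoid receptor, which also binds corticosterone, rose by 1.29 ± 0.27 and the coactivator Ncoa1 by 0.74 ± 0.17. Hsd11b1, the enzyme that regenerates active glucocorticoid inside cells, had 438, 420.4 and 457 at day 7 and 139, 233 and 189 at day 35 and fell by 1.19 ± 0.28 (adjusted p = 0.0301). The glucocorticoid receptor gene Nr3c1 stood at 0.15 ± 0.17.

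The subunits of the acetylcholine receptor, the channel that receives the nerve's signal, spread in both directions. Limma called 0 of 5, with 3 at an unadjusted p under 0.05, which 4346 of all 18625 probe sets reached. Chrnd, the delta subunit, had 3377, 3383 and 3707 at day 7 and 1429, 568 and 1645 at day 35, every day 35 array below every day 7 array, and a change of -1.65 ± 0.56 (adjusted p = 0.104). The fetal gamma subunit Chrng had 417, 321 and 493 at day 7 and 162, 13.8 and 472 at day 35, with 1 day 35 array near the floor and another as high as day 7, at -1.61 ± 0.97. The adult epsilon subunit Chrne had 142, 164 and 127 at day 7 and 407, 518 and 324 at day 35, wholly higher at day 35, and stood at 1.41 ± 0.41 (adjusted p = 0.0643). The beta and alpha subunits Chrnb1 and Chrna1 stood at 0.96 ± 0.43 and -0.11 ± 0.38. In the fit of the 6 vehicle arrays, which called 2570 of 18625 probe sets, 2 subunits rose and 1 fell. Vehicle day 35 replicate 2 had the lowest Chrnd and Chrng signals of the 6 vehicle arrays.

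Among 15 organisers of the synapse 2 rose and 0 fell (13.3%, against 4.72% of all genes). Erbb2, a receptor subunit for neuregulin, had 105, 122 and 77.6 at day 7 and 229.5, 574 and 312 at day 35 and rose by 1.64 ± 0.32 (adjusted p = 0.0138). Lamb2, the laminin chain concentrated in the synaptic basal lamina, had 692, 609 and 593 at day 7 and 1625, 1440.3 and 1834 at day 35 and rose by 1.34 ± 0.19 (adjusted p = 0.00368). The receptor kinase gene Musk stood at -0.85 ± 0.33 and its activator Dok7 at 1.14 ± 0.32, neither called. Of 15 genes known to respond to denervation 1 passed (6.67%, near the share of all genes): Mustn1, a small nuclear protein of muscle and tendon, fell by 1.09 ± 0.27. The myogenic factor Myog and the factor Runx1, both known to rise after denervation, stood at -0.11 ± 0.26 and 0.18 ± 0.30, and the deacetylase Hdac4 at 0.52 ± 0.46.

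Calcium signalling genes held a pair of opposite changes. Rcan1 and Rcan2 encode regulators of calcineurin, the calcium-activated phosphatase; transcription of the short form of Rcan1 is itself induced by calcineurin. Rcan1 had 2310.1, 2118 and 2841 at day 7 and 482, 434 and 553 at day 35 and fell by 2.27 ± 0.32 (adjusted p = 0.00382), while Rcan2 had 504, 519.6 and 627 at day 7 and 2889.7, 2058 and 1824 at day 35 and rose by 1.98 ± 0.24 (adjusted p = 0.00192). Neither pair of days overlapped, and both genes kept their call in all 17 alternatives run, though another Rcan2 probe set, at 1.03, was not called. The other 13 of the 15 calcineurin and NFAT genes did not pass, so 13.3% were called, against 4.72% of all genes. The calcineurin subunits Ppp3ca, Ppp3cb and Ppp3cc stood at 0.23, 0.51 and -0.10.

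Of 12 calmodulin-like and calmodulin-binding genes 3 rose and 0 fell. Besides Calml3 these were Pcp4, a small calmodulin regulator of neurons, with 151, 29.8 and 78.5 at day 7 and 946, 433 and 164 at day 35 and a change of 2.25 ± 0.59, and the kinase subunit Camk2g with 1.00 ± 0.20. In the sarcoplasmic reticulum list 2 of 24 rose: Hrc, a calcium-binding protein of the store, by 0.83 ± 0.18 and Jph2, which ties the store to the surface membrane, by 0.93 ± 0.22. Casq2, the slow-fibre calsequestrin, stood at -2.25 ± 0.67 and did not pass. Of 14 ion channel genes Ano1, a calcium-activated chloride channel, rose by 1.62 ± 0.25 from 69.0, 67.3 and 86.1 at day 7 and 248, 272 and 259 at day 35. Fxyd6 was the 1 call among 9 sodium pump genes. The shares called of the calmodulin, sarcoplasmic reticulum, ion channel and sodium pump lists were 25%, 8.33%, 7.14% and 11.1%, against 4.72% of all genes.

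Most fast contractile genes had changes near 0, and 1 fast myosin fell. Of 20 fast fibre genes 1 passed, Myh1, the IIX myosin heavy chain, which had 6455, 6655 and 7275 at day 7 and 3629, 2814 and 3002 at day 35 and fell by 1.11 ± 0.17 (adjusted p = 0.00517), with 4 of its 5 probe sets called. The list's median was 0.06 and its share called was 5%, near the 4.72% of all genes. Myh4, the IIB chain of the fastest fibres, stood at 0.05 ± 0.15, with a sign that turned under 5 alternatives, and Myh2, the IIA chain, at -0.20 ± 0.11. The developmental chains Myh3 and Myh8 had 5300.4, 5955 and 6224 at day 7 and 1281, 767 and 2648 at day 35 and 947, 476 and 1177 at day 7 and 142, 104 and 315 at day 35 in turn. Both were lower in all 3 day 35 arrays, by -2.06 ± 0.73 and -2.16 ± 0.78, with wide errors, and neither passed (adjusted p = 0.114 and 0.118). Of 14 developmental muscle genes 2 fell and 0 rose: Igf2, the fetal insulin-like growth factor, fell by 1.12 ± 0.30 and Dlk1, an imprinted membrane protein of growing muscle, fell by 1.09 ± 0.28, the latter over a range of -1.51 to -0.59 with a day 35 mean of 24.2, near the floor. That list's median was -0.88 and its share called was 14.3%. The calls of Igf2 and Dlk1 were kept in only 6 of 17 and 8 of 16 alternatives.

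Slow fibre genes had a median of -0.59 over 17 genes, of which Ankrd2 alone passed, and 6 fell in the fit of the 6 vehicle arrays. That fit called 1407 of 18625 probe sets higher and 1163 lower. The slow myosin Myh7 had 9318, 11838 and 9836 at day 7 and 7629.9, 2395 and 12887 at day 35, overlapping between the days, and stood at -0.73 ± 0.52. Csrp3, the muscle LIM protein of the Z-disc, had 13133, 13234 and 14519.6 at day 7 and 2578, 3949 and 6413 at day 35 and stood at -1.75 ± 0.56, and Ankrd1, another ankyrin protein of the I-band, had 8149, 8951 and 8499.7 at day 7 and 1559.7, 2327 and 5099 at day 35 and stood at -1.68 ± 0.55. In both genes the day 35 arrays were all below those of day 7, and neither passed (adjusted p = 0.0855 and 0.0913). Of 25 Z-disc genes Ankrd2 was again the 1 call, and in the fit of the 6 vehicle arrays 11 fell and 3 rose. Sspn, the dystrophin-associated protein sarcospan, rose by 1.24 ± 0.18 on 3 of 5 probe sets, as the 1 call among 10 dystrophin complex genes. The shares called of the slow fibre, Z-disc and dystrophin complex lists were 5.88%, 4% and 10%, against 4.72% of all genes.

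Immediate early genes, which cells transcribe within minutes of a stimulus, mostly had changes below 0. Of 24 tested 3 fell and 0 rose (12.5%, against 4.72% of all genes). In 20 the change was below 0 and 15 were separated downwards, where 16.7% of all probe sets were. The median was -0.76. Fos, a subunit of the AP-1 factor, had 3765, 4613 and 4049 at day 7 and 419, 167 and 686 at day 35 and fell by 3.44 ± 0.91 (adjusted p = 0.0467). Egr2, a zinc finger factor of nerve and immune cells, had 925, 571 and 741 at day 7 and 89.6, 79.8 and 188 at day 35 and fell by 2.55 ± 0.56 (adjusted p = 0.0228). The day 35 arrays of Fos spread over 4-fold and all lay below day 7, and its call was kept in only 7 of 17 alternatives. Ier5, a nuclear protein induced by growth factors and stress, fell by 1.18 ± 0.25. Atf3 and Fosb stood at -2.02 ± 0.74 and -1.44 ± 0.68 and did not pass. The fit of the 6 vehicle arrays called 12 of the list, all lower, where it called 1163 of 18625 probe sets lower. No more than 2 of the list passed when a vehicle array was left out, and 0 passed on the deposited scale. Under nandrolone the list's median was 0.40. Its array scores there (the median over the list after each gene's mean of the 12 arrays was taken off) were -0.91, 0.03 and -0.11 at day 7. At day 35 they were -0.43, 0.41 and -0.01, so the days overlapped.

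The Egr2 promoter is shown because it holds the element through which serum response factor is known to switch on genes of this class. The window is chr20:21054392-21054691 on the minus strand of GRCr8 from RefSeq, and capitals mark a CArG box whose first base lies at -83 from the start site.
Egr2: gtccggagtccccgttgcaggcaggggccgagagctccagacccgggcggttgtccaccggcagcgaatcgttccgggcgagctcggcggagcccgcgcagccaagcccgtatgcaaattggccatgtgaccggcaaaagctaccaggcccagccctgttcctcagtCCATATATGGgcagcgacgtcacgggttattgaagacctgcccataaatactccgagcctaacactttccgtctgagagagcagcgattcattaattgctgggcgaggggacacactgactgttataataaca

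Of the 24 immediate early genes 17 had a promoter window, and 5 of these held a CArG box (29.4%), as did 1.64% of all windows. The other holders were Egr1, Klf6, Srf and Zfp36, none of which passed. The window of Ier5 held none.

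Among protein breakdown genes the shares called were 5.56% of 18 ubiquitin ligase and FoxO genes, 0% of 30 proteasome subunits and 7.41% of 27 autophagy genes, against 4.72% of all genes, so that the lists with calls lay near the background. Of 18 ubiquitin ligase and FoxO genes 1 rose, Cblb, a ligase that targets insulin receptor substrate, by 0.72 ± 0.14. The muscle ligases Fbxo32 and Trim63, known as atrogin-1 and MuRF1, had 179.7, 252 and 228 at day 7 and 116, 165 and 42.8 at day 35 and 4113, 3878 and 4406 at day 7 and 3032, 3137 and 3296 at day 35 in turn. In both, all day 35 arrays were below those of day 7, yet the changes of -1.06 ± 0.38 and -0.39 ± 0.19 did not pass (adjusted p = 0.119 and 0.240). Of 30 proteasome subunits limma called 0, with 3 at an unadjusted p under 0.05, a median of -0.08 and Psmd8 and Psma4 at -0.67 ± 0.21 and -0.48 ± 0.17. Among 27 autophagy genes Vmp1, which starts autophagosomes at the endoplasmic reticulum, had 1723, 2299 and 1705 at day 7 and 682, 526 and 691 at day 35 and fell by 1.56 ± 0.17 (adjusted p = 0.00133), and the lysosomal protease Ctsl fell by 0.96 ± 0.25 on 1 of 2 probe sets.

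Genes of growth signalling were called in both directions: 15% of 20 genes of the myostatin and activin pathway and 14.3% of 28 Akt, mTOR and translation genes, where 4.72% of all genes were called. Mstn, or myostatin, the secreted brake on muscle size, had 98.6, 219 and 268 at day 7 and 71.4, 54.9 and 36.2 at day 35 and fell by 1.52 ± 0.36 (adjusted p = 0.0294). Acvr2b, a receptor for it, rose by 0.90 ± 0.24 and Ltbp1, which stores latent TGF-beta in the matrix, by 0.98 ± 0.24. Fst, or follistatin, which binds myostatin, had 369, 456 and 288 at day 7 and 845, 1072 and 932 at day 35, wholly higher at day 35, and stood at 1.34 ± 0.39 without passing (adjusted p = 0.0616). The remaining 17 of the 20 genes of that pathway, Fst included, did not pass. Of 28 Akt, mTOR and translation genes 3 fell and 1 rose: the pseudokinase Trib1 fell by 1.51 ± 0.37, the cap-binding proteins Eif4e2 and Eif4e stood at -1.41 ± 0.17 and -0.78 ± 0.17, both called, and Eef2k, which slows elongation, rose by 0.80 ± 0.20. Eif4e was called on 1 of 2 probe sets, the other standing at 0.15, and Eef2k on 1 of 3.

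Igf2 was the 1 call among 14 IGF system genes, and Igf1 stood at -0.17 ± 0.44. The shares called of the IGF, polyamine and NF-kappaB lists were 7.14%, 20% and 13.3%, against 4.72% of all genes. Of 30 ribosomal protein genes limma called 0, with 1 at an unadjusted p under 0.05; Rpl3 stood at -0.69 ± 0.24 and Rpl19 at 0.19 ± 0.09. Among 10 polyamine genes the synthase Srm fell by 1.11 ± 0.22 and the antizyme Oaz2 rose by 0.78 ± 0.13 on 1 of 2 probe sets. Of 15 NF-kappaB genes Nfkbia rose and Tnfrsf12a, or Fn14, the receptor for the wasting cytokine TWEAK, had 877, 562 and 711 at day 7 and 116, 114 and 286 at day 35 and fell by 2.06 ± 0.54 (adjusted p = 0.0442).

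Myogenic genes changed in both directions. Myod1, the myogenic factor favoured by fast fibres, had 2194, 2234 and 2231 at day 7 and 3868, 4666 and 4219 at day 35 and rose by 0.93 ± 0.21 (adjusted p = 0.0244), and Mef2a, a factor that works beside it, rose by 0.72 ± 0.18 on 1 of 4 probe sets. Met, the hepatocyte growth factor receptor of satellite cells, had 109, 135 and 84.6 at day 7 and 28.6, 58.9 and 14.5 at day 35 and fell by 1.41 ± 0.31. The other 14 of 17 genes did not pass, so 17.6% were called, against 4.72% of all genes. Cdkn1a, which encodes the kinase inhibitor p21, had 1079, 1082 and 898 at day 7 and 8149, 857 and 7304 at day 35: 2 day 35 arrays were several times above day 7 and vehicle day 35 replicate 2 was below it, so that its change of 1.86 ± 0.73 did not pass (adjusted p = 0.150). Cdkn1c was the 1 call among 19 cell cycle inhibitors, D cyclins and Rb family genes (5.26%, near the share of all genes). Of 26 proliferation genes 2 fell and 0 rose (7.69%, against 4.72% of all genes), with a median of -0.51. Prc1, which bundles the spindle midzone, fell by 1.88 ± 0.39 and Pttg1, the securin that holds sister chromatids together, fell by 1.24 ± 0.29. Met, Prc1 and Pttg1 had day 35 means of 30.7, 10.9 and 31.6, near the floor, and over the alternatives ranged from -1.85 to -0.84, from -2.94 to -0.98 and from -1.66 to -0.73. In 19 Notch and 19 Wnt pathway genes limma called 0 and 0, with 4 and 2 at an unadjusted p under 0.05; Adam10 stood at -1.14 ± 0.41, Rbpj at 0.44 ± 0.16, Lrp5 at 0.91 ± 0.33 and Tcf7l2 at 0.56 ± 0.22.

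Most genes of energy metabolism had changes near 0. Of complexes II to V, biogenesis regulators and fatty acid genes 2.63%, 4.76% and 3.85% were called, against 4.72% of all genes. The median of 34 complex I subunits was 0.01 and limma called 0, with 3 at an unadjusted p under 0.05; Ndufs7 and Ndufa13 stood at 0.50 ± 0.20 and 0.41 ± 0.13. Of 38 subunits of complexes II to V 1 rose, Cox7a1, a muscle isoform of cytochrome oxidase subunit VIIa, with 656, 309.6 and 300.1 at day 7 and 978, 1226 and 965 at day 35 and a change of 1.38 ± 0.36. Of 15 genes of the tricarboxylic acid cycle limma called 0, with 2 at an unadjusted p under 0.05, and Dld stood at -0.53 ± 0.19 and Idh3g at 0.40 ± 0.15. Pprc1, a coactivator of mitochondrial genes, fell by 0.83 ± 0.20 as the 1 call among 21 biogenesis regulators, in which Ppargc1a stood at 0.71 ± 0.39. Lpl, the lipase that frees fatty acids from lipoproteins, had 5519, 6373 and 5589 at day 7 and 2651, 2408 and 3900.0 at day 35 and fell by 0.99 ± 0.18 (adjusted p = 0.0102), the 1 call among 26 fatty acid genes.

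Of 25 glycolysis and glycogen genes 3 rose and 1 fell (16%, against 4.72% of all genes). Slc2a4, the insulin-regulated glucose carrier GLUT4, had 1970.3, 1686 and 1594 at day 7 and 3457, 2779 and 3303 at day 35 and rose by 0.86 ± 0.20 on 1 of 2 probe sets. The muscle enzymes Eno3 and Pgam2 rose by 0.41 ± 0.08 and 0.51 ± 0.12, small changes in transcripts with little spread, and the phosphorylase kinase subunit Phka1 fell by 0.71 ± 0.19, on 1 of 2 probe sets. Over the alternatives Eno3 ranged from 0.26 to 0.45. The calls of Eno3, Pgam2 and Phka1 were kept in only 8, 7 and 7 of 17 alternatives, and each was lost on the deposited scale and with median centring.

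Glutathione transferases and redox genes were called in both directions: 7 of 36 rose and 3 fell (27.8%, against 4.72% of all genes), with a median of -0.07. Gsta1, an alpha-class transferase that removes lipid peroxidation products, had 1271, 1057 and 1662 at day 7 and 3419, 4785 and 5338 at day 35 and rose by 1.75 ± 0.30 (adjusted p = 0.00917). The mu-class genes Gstm2 and Gstm7 rose by 1.57 ± 0.30 and 1.43 ± 0.31, Gsta4 by 1.10 ± 0.21, the quinone reductase Nqo1 by 1.17 ± 0.28, the secreted peroxidase Gpx3 by 0.87 ± 0.17 and the extracellular dismutase Sod3 by 0.71 ± 0.18. The days did not overlap in any of these 7. Mt2A, Gsto1 and the thioredoxin gene Txn1 were called lower at -1.81 ± 0.39, -0.62 ± 0.16 and -0.53 ± 0.14. Leaving out single arrays gave 0 to 6 rises and 0 to 1 falls here, with 0 and 0 without vehicle day 7 replicate 2.

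Tubulin genes were lower where called. Of 16 tubulin and microtubule genes 3 fell and 0 rose (18.8%, against 4.72% of all genes), with a median of -0.47. Tuba4a, an abundant alpha-tubulin of muscle, had 7275, 7442 and 8385 at day 7 and 1483, 1489 and 3377 at day 35 and fell by 1.97 ± 0.36 (adjusted p = 0.0111). Tuba8 and Tubb6, the latter a beta-tubulin known from regenerating mouse muscle, had 2164, 1982 and 1432 at day 7 and 447, 404 and 989.9 at day 35 and 2224, 1621 and 1901 at day 7 and 439, 922 and 702 at day 35 in turn. No day 35 array reached day 7 in these genes, and Tuba8 fell by 1.67 ± 0.41 and Tubb6 fell by 1.51 ± 0.32.

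Matrix genes were called in both directions. Of 37 matricellular and matrix assembly genes 2 fell and 0 rose, 19 were separated downwards, and the median was -0.32. The share called, 5.41%, lay near the 4.72% of all genes. Of all 10421 genes 1884 were separated downwards. Postn, or periostin, a matricellular protein of wounds and fibrosis, had 4289, 4240.2 and 3747 at day 7 and 529, 474 and 998 at day 35 and fell by 2.66 ± 0.72 (adjusted p = 0.0491). Lox, which cross-links collagen, had 1067, 1135 and 1112 at day 7 and 186, 476 and 419 at day 35 and fell by 1.68 ± 0.45, with both probe sets called. The calls of Postn and Lox were kept in only 6 and 7 of 17 alternatives. Of 20 collagen chains limma called 0, with 3 at an unadjusted p under 0.05, while 12 were separated downwards, with a median of -0.51; Col11a1 stood at -1.04 ± 0.40 and Col15a1, the chain of the muscle surface, at 0.62 ± 0.26. In the fit of the 6 vehicle arrays 14 matricellular genes fell, and 9 collagen chains fell and 1 rose. That fit called 1407 of 18625 probe sets higher and 1163 lower. Among 12 metalloproteinase and inhibitor genes Timp1 fell and Timp3, an inhibitor bound to the matrix, rose by 1.63 ± 0.26 from 921, 868 and 809 at day 7 and 2790.2, 2572 and 2769 at day 35, with 2 of 4 probe sets called. Itga9 was the 1 call among 18 integrin genes (5.56%, near the share of all genes). Under nandrolone the medians of the matricellular and collagen lists were 0.23 and 0.26. Array scores of the collagen list, taken as for the immediate early list, were -0.32, -0.30 and 1.00 at day 7 there. At day 35 they were -0.55, 0.14 and 1.60. Those of the matricellular list were -0.31, -0.25 and 0.85 at day 7 and -0.36, 0.09 and 1.05 at day 35. In both lists the days overlapped, and the highest score was that of nandrolone day 35 replicate 3, the array that stood apart.

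The 22 tested markers of macrophages and other myeloid cells all had a change below 0. Of these 17 were separated downwards and 2 were called lower, with a median of -0.72. Of all 10421 genes 1884 were separated downwards and 2.17% were called lower. Gpnmb, a glycoprotein of lipid-laden macrophages, had 2216, 1561 and 2126 at day 7 and 696, 586 and 353 at day 35 and fell by 1.86 ± 0.41, and Ccl2 was described above. The summed signal of the 22 markers was 7862 to 10365 at day 7 and 3886 to 5445 at day 35. The part of these cells in the fall of matrix, chemokine and immediate early genes was not tested. The fit of the 6 vehicle arrays called 11 of the 22, all lower, where it called 1163 of 18625 probe sets lower.

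Schwann cell and nerve markers moved both ways: of 13, Cnp and Fxyd6 rose and Egr2 fell (23.1%, against 4.72% of all genes). Cnp, an enzyme of myelin, had 929, 704 and 679.9 at day 7 and 2073, 3133 and 3117 at day 35 and rose by 1.82 ± 0.29 (adjusted p = 0.00690) on both probe sets, while the myelin genes Mbp and Prx stood at -0.09 ± 0.86 and -0.01 ± 0.24. The summed signal of the list, 17171 to 18721 at day 7 and 16172 to 17760 at day 35, overlapped. Gsn, or gelsolin, an actin-severing protein, rose by 0.99 ± 0.17 as the 1 call among 15 fibroblast markers (6.67%), whose sums also overlapped. Alas2, the first enzyme of haem synthesis in red cells, fell by 1.35 ± 0.27 as 1 of 3 erythrocyte markers, and their summed signal was 4024 to 6399 at day 7 and 1397 to 2846 at day 35.

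By the brightest probe set of each gene, limma called 0 genes in the remaining marker and stress lists, of 13 adipocyte, 18 endothelial, 18 smooth muscle, 3 lymphocyte, 4 mast cell and 9 tendon markers, 24 heat shock genes and 26 interferon genes. At an unadjusted p under 0.05 there were 3 tendon markers, 1 endothelial marker, 6 heat shock genes and 1 interferon gene, and 0 in the other 4 lists. Of all 18625 probe sets 4346 reached that threshold. Adipoq, the adipocyte hormone, stood at 1.07 ± 0.77 and Lipe, a lipase of fat, at -0.32 ± 0.19 on its brighter probe set, while its dimmer one was called higher at 1.64 ± 0.38 (adjusted p = 0.0276), from a mean signal of 13.0 to 74.4. Dimmer probe sets of the interferon list's Irf9 and B2m were also called higher, at 0.75 and 0.78. The endothelial genes Sox18 and Cldn5 stood at -0.76 ± 0.30 and -0.51 ± 0.24 and the tendon genes Thbs4 and Fmod at -0.62 ± 0.24 and 1.40 ± 0.58. Among chaperones Dnaja1 and Hspe1 stood at -0.47 ± 0.16 and -0.34 ± 0.11, and among interferon genes Psmb8 and Irf7 stood at 0.54 ± 0.24 and 0.58 ± 0.27. Smooth muscle genes Des and Lmod1, mast cell genes Cma1 and Mcpt1l1, and lymphocyte genes Cd3g and Lck lay between -0.54 and 0.72.

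**Figure D4:**
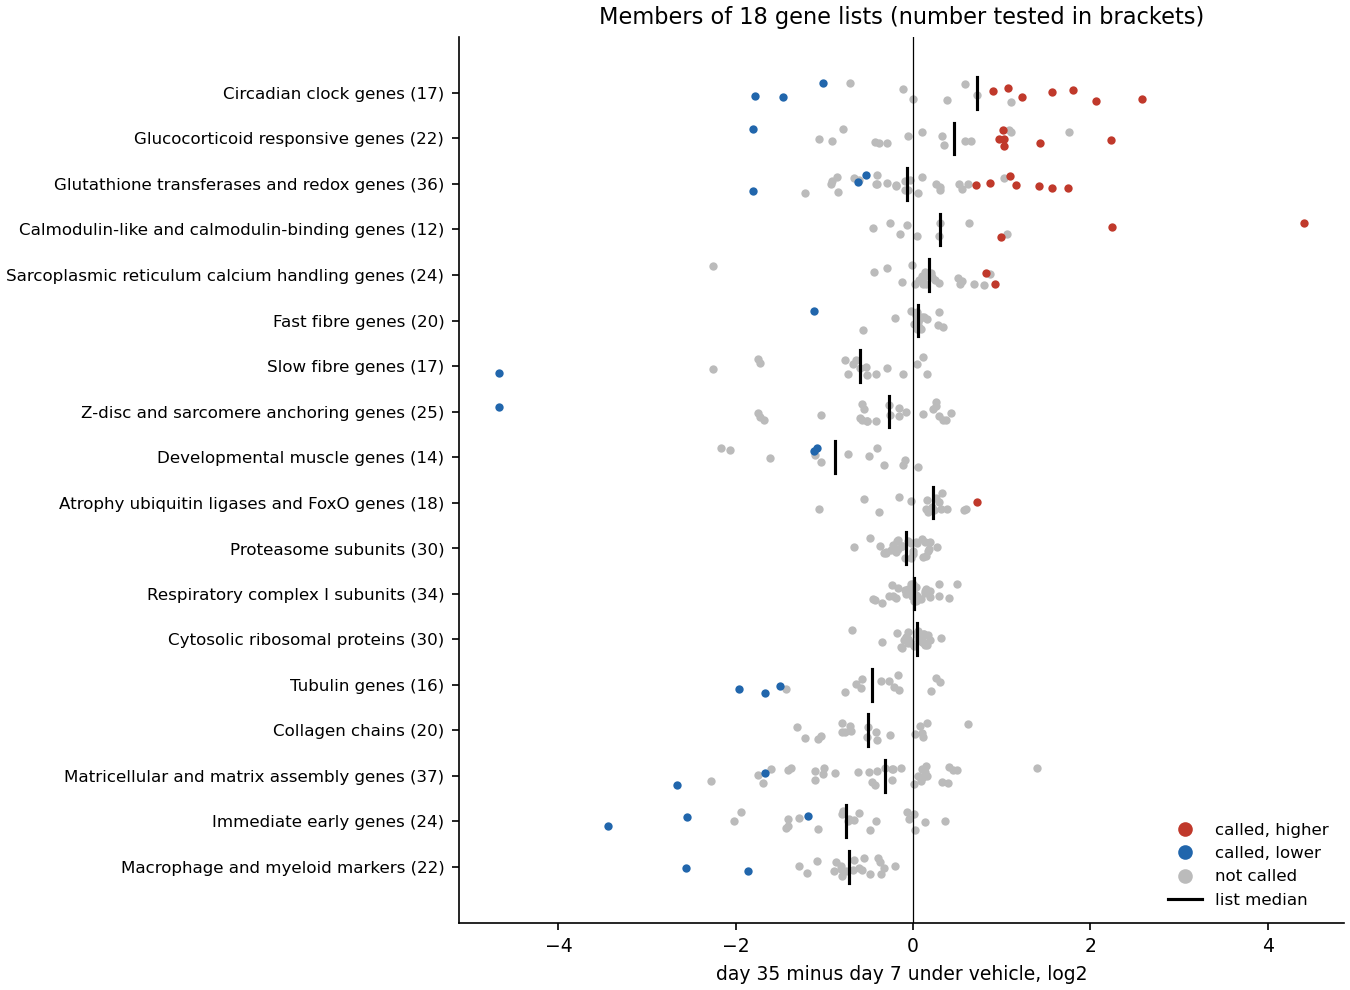
Change from day 7 to day 35 in vehicle rats for every tested member of 18 gene lists; each point is a gene on the log2 scale, coloured where called, and black bars are list medians. The clock list has 7 red and 3 blue points around a median of 0.72, all macrophage markers lie left of 0, and the complex I and ribosomal lists crowd around 0.

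The nandrolone rats give the same interval of time in arrays that the vehicle comparison does not use, apart from the shared estimate of spread and the shared scale. There limma called 126 of 18625 probe sets, or 0.677%, with 2706 at an unadjusted p under 0.05. Of the 1045 vehicle calls 1002 had the same sign under nandrolone, which is 95.9%, as did 68.9% of all tested probe sets; 598 were separated in the same direction and 4 in the opposite one. Both comparisons called 102. Calml3 changed by 3.77 under nandrolone, Cdkn1c by 2.32, Fxyd6 by 2.52 and Ankrd2 by -3.23. Limma did not call Ankrd2 under nandrolone (adjusted p = 0.238). Its signals there were 2978, 4710 and 3473 at day 7 and 48.1, 6738 and 121 at day 35, so the days overlapped. Among the 43 vehicle calls with the opposite sign there, Fos stood at 0.17. Its signals under nandrolone were 160.1, 2620.3 and 1644 at day 7 and 599, 3606 and 478 at day 35, with both days spread over more than 5-fold.

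**Figure D5:**
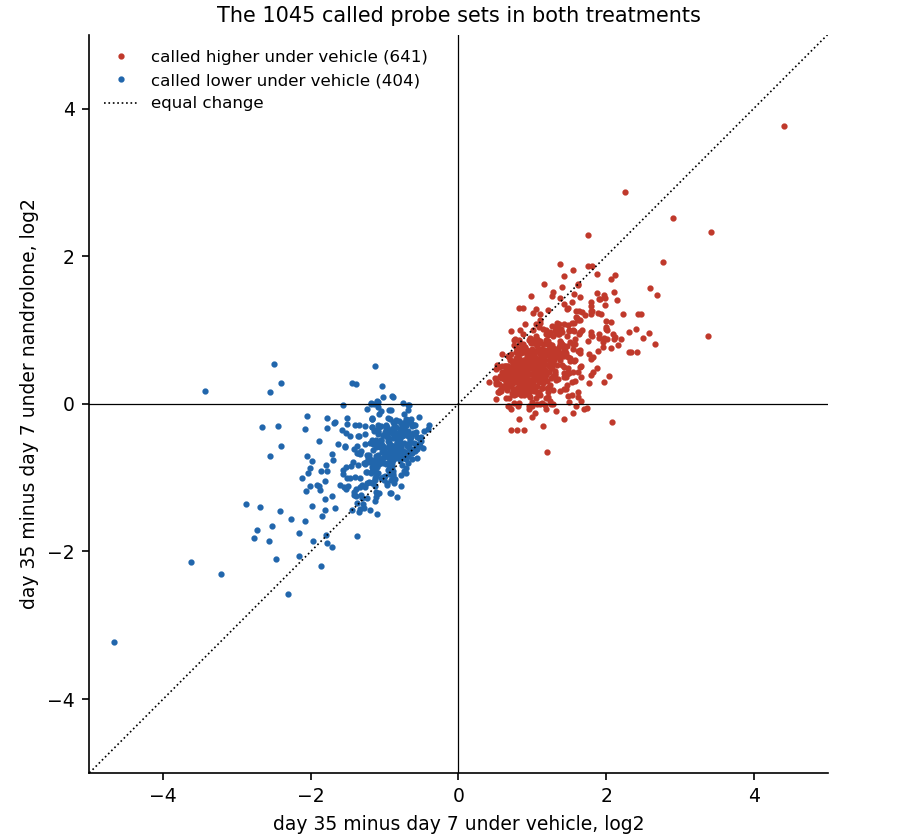
Change from day 7 to day 35 under nandrolone against that under vehicle, both log2, for the 1045 probe sets called in vehicle rats; the dotted line marks equal change. Most points lie in the quadrants of equal sign (1002 of 1045), with Calml3 at the upper right and Ankrd2 at the lower left, and many lie closer to 0 under nandrolone.

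Whether the change with time differed between the treatments was tested as an interaction. Limma called 0 of 18625 probe sets, or 0%, with 745 at an unadjusted p under 0.05 and 0 called in each alternative that was run. The vehicle calls were selected for being large in vehicle rats, so that smaller values under nandrolone are no measure of a difference.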

How the data were processed

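Total RNA of 12 rat muscles was hybridised to one-colour Affymetrix arrays, 1 per rat. The deposited unit is a linear intensity for each probe set, made by the authors with MAS5 per the submitters' processing notes, whose version and scaling target are not given in the sources used here. A second deposited file has 12 columns whose samples are not named in it, and was left aside.

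Of 31099 probe sets 57 controls were left out. To the intensities 16 was added and log2 taken, and the 12 arrays were quantile normalised, because their deposited scales differ. The dimmest 40% by mean over the 12 arrays were not tested, which leaves 18625. The platform's annotation lists 1 gene for 20826 of 31042 probe sets, more than 1 for 436 and no gene for 9780; 20758 of the first matched the RefSeq table of GRCr8, used for symbols and promoters. Of those tested 14317 name 1 gene, in total 10421 genes, each of which takes the values of its brightest probe set. Signals printed are quantile-normalised, on the linear scale.

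Limma 3.58.1 in R 4.3.3 (with its data.table package, version 1.17.8) fitted 4 group means with an intensity trend and 8 residual degrees of freedom, with two-sided p-values adjusted by Benjamini and Hochberg's method over the 18625 probe sets and a threshold of 0.05. By exact permutation 3 arrays against 3 allow no p under 0.1. The labels describe separate rats, and the number of arrays limits the precision. The same steps were tested on simulated data with 18625 probe sets: 45% of 2-fold and 83% of 4-fold changes were recovered, with 0 of the wrong sign and 1 false call. There 100 probe sets were changed at each fold, the groups were otherwise equal and the noise was independent and normal. More probe sets were called in the data, so these shares need not carry over.

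The 56 gene lists and the naming rule were chosen with earlier results of these data known. The rule takes the 20 largest rises and 20 largest falls among called genes whose days did not overlap, a condition that every call met. It also takes up to 5 called members of each list by smallest p (2 by smallest p where none was called). A set of muscle, clock and growth genes is always named. Other members that are named, among them Cry2, Tef, Npas2, Nfil3, Clock, Cry1, Tsc22d3, Sult1a1, Nr3c1, Nqo1, Sod3, Gsto1, Txn1, Casq2, Musk, Dok7, Atf3, Fosb, Mbp, Prx, Irf9, B2m and the calcineurin subunits, were chosen after their values were seen. Alternatives were other pseudocounts (1 and 64), filters (none and 60%), scalings, variance models, the replicate number as a block, the 6 vehicle arrays alone, each gene's mean over its probe sets, and single arrays left out. Figures were drawn with matplotlib in Python.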

Additional observations from a re-analysis of the deposited data

How the results depend on the processing

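The count of 1045 vehicle calls (641 higher, 404 lower) was 988 and 1078 with pseudocounts of 1 and 64, 879 with a 60% filter, 914 with median centring and 939 without the trend. It was 717 without a filter, with 255 lower, 192 (148 higher, 44 lower) on the deposited scale, 2570 (1407 and 1163) in the fit of the 6 vehicle arrays and 5274 (2743 and 2531) with array quality weights. The share of calls that were higher was 77.1% on the deposited scale and 52% with weights, against 61.3%. Leaving out 1 array gave 178 to 2030 calls, 124 to 1175 higher and 52 to 855 lower, with the top of each range without nandrolone day 35 replicate 3 and the bottom without a vehicle day 7 array; these fits hold fewer arrays. Same-numbered vehicle arrays correlated at -0.0201, 0.105 and -0.0212 after group means were taken off, and arrays of different number at -0.122 to 0.133. With 3 arrays a group these values cannot decide whether the numbers pair the arrays. With the replicate block 1518 were called, 857 higher and 661 lower.

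Under nandrolone the count of 126 was 73 without a filter, 15 on the deposited scale, 59 without the trend and 293 with weights, and 24 to 101 without 1 of the 6 vehicle arrays or nandrolone day 35 replicate 3 (101); the other 5 nandrolone arrays were not left out. The interaction count was 0 in each alternative run. Values that turned in sign belong to genes that did not pass: Myh4 at -0.075 on the deposited scale, -0.086 with median centring, -0.031 with weights, -0.013 without vehicle day 7 replicate 1 and -0.061 without vehicle day 35 replicate 3, in a range of -0.061 to 0.11 over single arrays left out; Chrna1 at 0.0017 with weights and 0.10 without vehicle day 35 replicate 2, in a range of -0.22 to 0.10; Myog at 0.044 with weights; and, with the mean over probe sets, Lipe at 0.66 and Runx1 at -0.039. Of the 53 named genes that did not pass, 34 passed in some alternative. The cause of these shifts was not tested. With 3 arrays a group the fit recovered under 50% of simulated 2-fold changes, so a gene that did not pass may still have changed.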

Other observations

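Genes of iron and haem handling, a set put together after their values were seen, were called in both directions in vehicle muscle. Besides Tfrc (-2.57 ± 0.55) and Alas2 (-1.35 ± 0.27), the zinc and iron carrier Slc39a14 fell by 0.74 ± 0.19 on 1 of 2 probe sets. Hjv, or hemojuvelin, a co-receptor that in liver sets the iron hormone hepcidin and is abundant in muscle, rose by 1.18 ± 0.25, and Cp, the ferroxidase ceruloplasmin, by 1.22 ± 0.17. The haemoglobin gene Hbb stood at -1.26 ± 0.43 and the mitochondrial iron carrier Slc25a37 at 0.56 ± 0.28, neither called. Alas2 and Hbb are red cell genes, and the summed signal of the 3 erythrocyte markers was 4024 to 6399 at day 7 and 1397 to 2846 at day 35; its part in these values was not tested. Under nandrolone Tfrc stood at -1.86, Alas2 at -0.43, Hjv at 0.39 and Cp at 1.27.

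Further genes outside the lists, likewise picked after their values were seen, include the thyroid hormone receptors Thra and Thrb, which rose by 0.89 ± 0.23 on 1 of 2 probe sets and by 0.98 ± 0.20 on 1 of 3, and the M-band proteins Myom1 and Myom2, which rose by 0.94 ± 0.20 and 0.51 ± 0.13. Mamstr, a muscle coactivator of MEF2, rose by 1.45 ± 0.26. Rpl3l, the muscle form of a ribosomal protein, rose by 0.97 ± 0.20 while its widespread counterpart Rpl3 stood at -0.69 ± 0.24 and did not pass. Single genes known from nerve rose, Nnat at 1.88 ± 0.43, Cntn2 at 1.80 ± 0.36 and Sncg at 1.61 ± 0.39, and the neurofilament gene Nefm stood at 2.39 ± 0.70 without passing (adjusted p = 0.0643); of the 13 tested Schwann cell and nerve markers 6 were above 0 and 7 below, with a median of -0.01 and sums that overlapped. S100a4, a calcium-binding protein of fibroblasts and leukocytes, rose by 1.90 ± 0.38. The chromatin enzyme genes Kmt2a, Kat6a and Kat6b rose by 0.78 ± 0.18, 0.59 ± 0.15 and 1.06 ± 0.20, on 1 of 3, 1 of 2 and 2 of 3 probe sets. Rragd, a GTPase of the lysosomal mTORC1 switch, fell by 1.32 ± 0.29, and Homer2, a scaffold of calcium channels, fell by 1.36 ± 0.37.

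The calls were unevenly spread over the array's annotation. Of 3981 tested probe sets with no gene listed, 266 were called higher (6.68%) and 39 lower (0.98%), with a median change of 0.14. Of 14317 with 1 gene listed, 372 were called higher (2.60%) and 347 lower (2.42%), with a median of -0.03. Under nandrolone the medians were 0.09 and -0.03. Probe sets with no gene listed therefore held 266 of the 641 rises.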
